A study of Drosophila melanogaster with 23 samples.

Results

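The genes described here are markers of the glial cells of the fly brain, taken by symbol from the deposited counts. Of 10 listed genes, 9 were present under their listed symbol among the 17521 genes of the table: repo, Eaat1, Gs2, alrm, moody, wrapper, nrv2, drpr and Gli. The tenth, Gat, was not listed by that symbol. RefSeq gives CG1732 as a synonym of Gat, and a gene with that symbol was in the table, so CG1732 is described beside the 9 genes and is counted among none of them. RNA was measured by sequencing in whole brains of wild-type Canton-S Drosophila melanogaster of females and males aged 5, 20, 30 or 40 days, with no mutation, transgene or treatment in any group. Each library came from a pool of 18 dissected brains, with 3 libraries per sex and age and 2 in 30-day-old males, 23 libraries in all (12 from females and 11 from males). A library's name gives its sex, age and replicate letter (F40B for replicate B of the females at 40 days). The comparisons asked how each gene differed between ages within a sex, and between the sexes at each age.

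Glia of the fly brain fall into classes that are told apart by position. Perineurial and subperineurial glia cover the brain and form the blood-brain barrier, whose septate junctions seal the space between cells. Cortex glia wrap the cell bodies of neurons. Astrocyte-like glia send processes among the synapses, where they take up and recycle transmitters, and ensheathing glia border the neuropil and clear degenerating axons. The gene repo encodes a homeodomain transcription factor found in nearly all of these cells. Eaat1 is a glutamate transporter, Gs2 a glutamine synthetase and CG1732 (Gat) a GABA transporter. The leucine-rich repeat protein gene alrm is widely used as a marker of astrocyte-like glia, and the immunoglobulin family protein gene wrapper as a marker of cortex glia. At the barrier, moody encodes a G protein-coupled receptor of subperineurial glia, Gli (Gliotactin) a junction protein and nrv2 a beta subunit of the sodium pump that also belongs to septate junctions. The receptor Draper, encoded by drpr, recognises neuronal debris for engulfment.

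The genes drpr and Gli rose with age in female brains, and Eaat1 and nrv2 fell. These calls rested on few libraries, and none of the 9 genes was called without the female libraries high in the midgut gene mex1. The genes repo, Gs2, alrm, moody and wrapper did not pass the test in edgeR in any comparison. DESeq2 called Gs2 and alrm in 40-day-old against 5-day-old females. In males none of the 9 genes passed the test in edgeR, and DESeq2 called Eaat1, Gs2 and Gli at 40 days. The edgeR values of all 9 genes in males at 40 against 5 days had the same signs as in females. Those of repo, moody and wrapper in males did not hold in every omission of a single library. Brain RNA is a mixture, so that fewer cells of a type and less RNA per cell cannot be told apart in any of these values.

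The counts were the authors' raw reads per gene. Total counts ran from 6770442 to 28687450 per library (median 15628443), so that 3 counts, the limit for a gene with no reads, correspond to 0.105 to 0.443 CPM (counts per 1e6 counts of the library), for counting error only. All 9 genes and CG1732 had at least 241 counts in every library and passed the filter on low counts in every fit. Total counts were at least 21133499 in every 5-day-old library and at most 16124005 in every 40-day-old one, with no overlap. What part depth had in the values below was not tested. Levels are CPM after TMM scaling, given as mean ± SD over 3 libraries, or 2 in 30-day-old males. A gene is called changed if its false discovery rate (Benjamini-Hochberg over all genes tested) was under 5% in edgeR's quasi-likelihood F test over the 4 ages and again in the contrast of the ages compared, and rose and fell are used of such genes. The labels call the replicates separate samples, and each was a separate pool of brains.

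Some libraries stood apart. Transcripts of the midgut gene mex1 exceeded 10 CPM in 4 female libraries (F5B, F30A, F30B, F40A) and in M40C, at 15.8 to 153 CPM, and were at 7.71 CPM or less in the other 18 libraries. The summed level of the 9 glial genes was high in F5C (9239 CPM, against 5373 and 5482 in the other 5-day-old female libraries) and in M5B and M5C (9941 and 8670, against 6129 in M5A). It was lowest of all in M40C (3459 CPM, against 5761 and 5825 in M40A and M40B). The sum of 15 neuron markers ran from 4253 to 10960 CPM over all libraries, with 10490 CPM in F5C, 10960 in M5B and 10350 in M40C. In M5C, also high in the glial sum, the neuron sum was 5457 CPM, and in M5A it was 10070 CPM. The sum of 10 retina markers ran from 1119 CPM in F5C to 21510 CPM in M20A. It was 18120 CPM in F5A and 3313 in F5B, and 3249 CPM in M5B, against 7123 in M5A and 8388 in M5C. What part these differences had in the values below was not tested, and calls of the glial genes that rest on a library are given with and without it.

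Scaled by exon length, the genes differed widely in level. Gs2 was the most abundant, with a median of 1000 RPKM (CPM per kilobase of exon) over the 23 libraries, followed by nrv2 at 507 RPKM and Eaat1 at 175 RPKM. This order held in all 23 libraries, as did Eaat1 above CG1732 (106 RPKM). Next came alrm at 88.3, wrapper at 84.0 and repo at 72.5 RPKM, and these neighbours were not separated from each other: alrm was above wrapper in 16 of 23 libraries and wrapper above repo in 16 of 23. The level of repo was above that of moody (45.2 RPKM) in 22 of 23 libraries, and moody was above drpr (36.1 RPKM) in 18 of 23. Gli was the lowest in every library, with a median of 5.82 RPKM. Gs2 and nrv2 together therefore held most of the summed signal: Gs2 took 43.3 to 53.3% and nrv2 18.8 to 28.2% of the summed RPKM of the 10 genes.

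**Figure D1:**
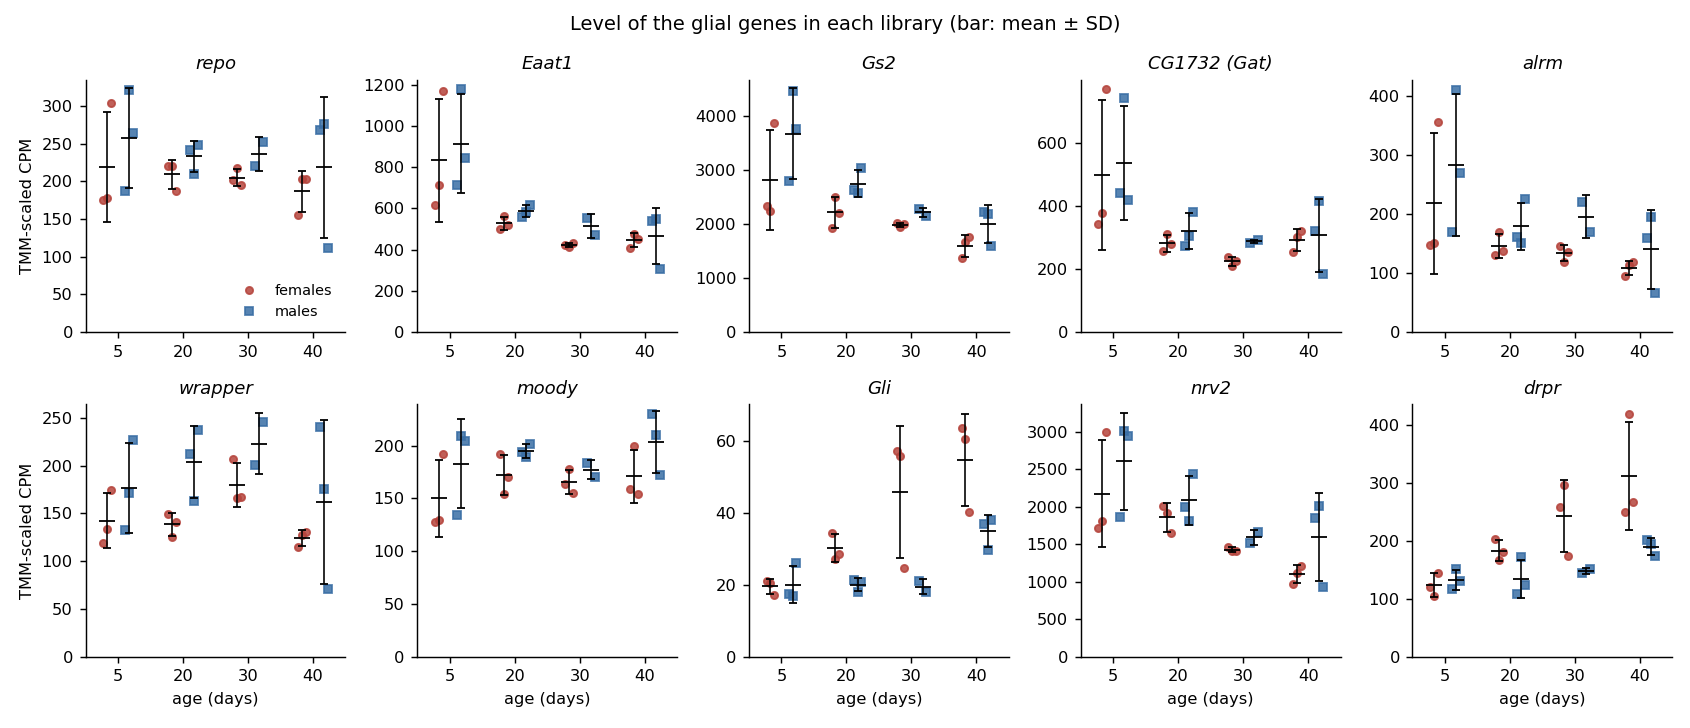
TMM-scaled CPM of the 9 glial genes and CG1732 (Gat) in each of the 23 libraries, by age in days, with females as circles and males as squares; black bars are the mean ± SD of a group. The panels for drpr and Gli are highest in 40-day-old females, at 251 to 420 and 40.1 to 63.5 CPM, and the panels for Eaat1, Gs2 and alrm are highest at 5 days.

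The position of each gene is given on dm6, the build of the counts (Ensembl annotation, release 115). The pan-glial gene repo lies on the plus strand of chromosome 3R from 18236192 to 18239602, and CG7156 on the other strand shares exon sequence with it. Eaat1 (2L, 9333567 to 9341925, plus strand), Gs2 (X, 11422832 to 11430197, plus strand), wrapper (2R, 22379637 to 22382675, plus strand), nrv2 (2L, 6789770 to 6798862, minus strand) and Gli (2L, 15756002 to 15762758, minus strand) overlap no other annotated gene. The gene alrm (3R, 25381065 to 25382781, minus strand) lies within the span of Fur1, moody (X, 2044292 to 2050120, minus strand) has CG4313 in its span, and drpr (3L, 1715595 to 1731107, minus strand) shares exon sequence with Oseg4 on the same strand, where union counting assigns a read to neither gene. CG1732 lies on the plus strand of chromosome 4 from 629691 to 635350 and overlaps a transposable element. The strand setting of the counting is not given in the sources used here, so that it is not known whether reads in the sequence that repo shares with CG7156 were assigned or dropped.

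The marker of glia as a whole, repo, passed the test in neither sex. In females it averaged 219 ± 73.1 CPM at 5 days, 209 ± 19.3 at 20 days, 205 ± 11.3 at 30 days and 187 ± 27.5 at 40 days. In males it averaged 257 ± 66.7, 233 ± 20.7, 236 ± 22.2 and 218 ± 93.2 CPM at the same ages. The groups overlapped at every step of this order in both sexes. Between 40 and 5 days the log2 fold change of repo was -0.21 ± 0.19 (SE) in females (adjusted p = 0.532, edgeR) and -0.24 ± 0.31 in males (adjusted p = 0.715). Within groups the spread was wide where single libraries stood apart: F5C had 303 CPM beside 175 and 178 in F5A and F5B, and M40C had 111 CPM beside 268 and 276 in M40A and M40B. Without the libraries with mex1 above 10 CPM, the value in males, which then lacks only M40C, was 0.10 on the log2 scale, so the sign of the change of repo in males rests on that library. In females too, 1 of 12 single omissions of a library gave the other sign, at 0.08.

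Over the 4 ages, 4 of the 9 genes passed the F test in females (Eaat1, nrv2, drpr and Gli), beside 14.5% of all genes tested. DESeq2 called 6, these and Gs2 and alrm (28.6% of all genes in DESeq2). The adjusted p was 0.0172 for drpr, 0.0211 for Eaat1, 0.0242 for Gli and 0.0275 for nrv2, and it was 0.0382 for CG1732. Gs2 (adjusted p = 0.0754), alrm (0.104) and wrapper (0.114) had an unadjusted p under 0.05 (35.6% of all genes). In the comparison of 40-day-old with 5-day-old females, 4 of the 9 genes changed, where 7.34% of all genes did. Of the 9 genes, 2 rose (2.47% of all genes) and 2 fell (4.87% of all genes). In DESeq2 6 changed, with Gs2 and alrm lower in addition (13.7% of all genes in DESeq2), and the same 6 had an unadjusted p under 0.05 in edgeR (26.2% of all genes). The median log2 fold change of the 9 genes was -0.21, against -0.03 over all genes tested.

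The engulfment receptor gene drpr had 251, 420 and 268 CPM in 40-day-old female brains (F40A, F40B and F40C), against 121, 106 and 146 CPM in 5-day-old ones. All 40-day-old libraries were above all 5-day-old libraries, with F40B the highest of the 23. Draper transcripts rose by 1.35 ± 0.23 on the log2 scale (adjusted p = 0.00587). In 30-day-old females drpr had 258, 296 and 175 CPM in F30A, F30B and F30C and had risen by 0.92 ± 0.23 (adjusted p = 0.0353) against 5 days. The 20-day-old females, at 203, 167 and 181 CPM, were also all above the 5-day-old ones, but the log2 fold change of 0.55 ± 0.23 did not pass (adjusted p = 0.198). The order of the ages in females was thus 40, 30, 20 and 5 days, and only the last step had no overlap of libraries.

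In male brains drpr did not pass the test at any age. It had 202, 195 and 174 CPM in 40-day-old males, against 117, 151 and 130 CPM in 5-day-old males, with no overlap between the groups. Its log2 fold change of 0.52 ± 0.18 did not pass (adjusted p = 0.138). At 20 and 30 days the values in males were 0.03 ± 0.18 and 0.13 ± 0.20 on the log2 scale (adjusted p = 0.967 and 0.970).

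Gli, the gene of the junction protein Gliotactin, also rose in females at 30 and 40 days. It had 63.5, 60.5 and 40.1 CPM in F40A, F40B and F40C, against 21.03, 20.6 and 17.2 CPM in F5A, F5B and F5C. The lowest 40-day-old library was above the highest 5-day-old one, and Gli rose by 1.49 ± 0.29 on the log2 scale (adjusted p = 0.0105). At 30 days F30A and F30B had 57.0 and 55.7 CPM and F30C had 24.5 CPM, and Gli had risen by 1.16 ± 0.28 (adjusted p = 0.0339). At 20 days the 3 libraries had 34.5, 27.2 and 28.6 CPM, again above every 5-day-old library, with a log2 fold change of 0.60 ± 0.28 that did not pass (adjusted p = 0.256).

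In males Gli did not pass the test at any age. Its level was 20.1 ± 5.14 CPM at 5 days, 20.0 ± 1.82 at 20 days and 19.4 ± 2.13 at 30 days, ages whose libraries overlapped. At 40 days the male libraries had 36.8, 29.7 and 38.0 CPM, against 17.4, 16.8 and 26.0 CPM at 5 days, with no overlap. The log2 fold change of 0.80 ± 0.20 did not pass in edgeR (adjusted p = 0.0673) and did in DESeq2 (0.82, adjusted p = 0.0061).

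Within the 30-day-old females drpr and Gli were high in the 2 libraries with the most gut transcripts and the fewest total counts. F30A and F30B, where the sum of 8 gut markers was 22280 and 4872 CPM, were high for both genes, and F30C, where it was 1386 CPM, was low for both. Total counts were 12541109 in F30A, 12735231 in F30B and 25126334 in F30C. These libraries also differed in the sum of 6 fat body markers. It was 33550 CPM in F30A, 14220 in F30B and 122700 in F30C, the highest of all 23 libraries. The level of drpr was 258 CPM in F30A and 296 CPM in F30B. F5B, with a gut sum of 17890 CPM, had the lowest drpr of all 23 libraries, at 106 CPM, and 20.6 CPM of Gli. Without F5B, F30A, F30B and F40A, the female libraries with mex1 above 10 CPM, the 30-day log2 fold change was 0.40 for drpr (adjusted p = 0.738) and 0.37 for Gli (adjusted p = 0.786). At 40 days the same fit gave 1.37 for drpr and 1.40 for Gli, close to the values with all libraries, with adjusted p = 0.0445 and 0.0472 in the contrast, while neither passed the F test over ages. In F40B and F40C, where the gut sum was 13.5 and 14.1 CPM, drpr had 420 and 268 CPM and Gli 60.5 and 40.1 CPM, above every 5-day-old female library. Hemocytes also use Draper. The sum of 9 hemocyte markers was 982 to 1113 CPM in 40-day-old females, against 1066 to 1303 CPM in 5-day-old ones, and none of these markers was at 0 across a group. Its members moved in both directions: at 40 days the prophenoloxidase genes PPO1 and PPO2 fell, with log2 fold changes of -5.32 and -3.28, and the scavenger receptor gene crq rose by 0.69 (adjusted p = 0.0181, 0.00218 and 0.00941). At 30 days NimC1 and crq rose and PPO2 fell. The sum of 6 fat body markers was 9282 to 18450 CPM in 40-day-old females, against 25730 to 68220 CPM in 5-day-old ones, and so moved with age. The part of gut, hemocytes, fat body and depth in the values of the glial genes was not tested.

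The genes of transmitter handling and of astrocyte-like glia had values below 0 at every age against 5 days. Eaat1 had 409, 476 and 451 CPM in 40-day-old females, against 615, 713 and 1170 CPM in 5-day-old females. The groups did not overlap, and the transporter gene fell by 0.89 (log2, SE 0.20, adjusted p = 0.0203). In 30-day-old females it had 422, 415 and 431 CPM and had fallen by 1.02 against 5 days (SE 0.20, adjusted p = 0.0171). In 20-day-old females, at 500, 564 and 517 CPM, the log2 fold change was -0.67 ± 0.20 (adjusted p = 0.0970 in edgeR, 0.0321 in DESeq2), and -0.34 without F5C. Libraries at 30 and 40 days overlapped, and those at 20 days lay above both and below every 5-day-old library. F5C was the highest of the 5-day-old libraries, and without it the log2 fold changes of Eaat1 were -0.57 at 40 days and -0.68 at 30 days and both were still called. Neuron markers moved at 30 days as well. The sum of the 15 was 4253 to 5543 CPM in 30-day-old females, against 6715 to 10490 CPM in 5-day-old ones. Of the 15, 6 fell (4.82% of all genes did), and the median log2 fold change was -0.72. At 40 days that sum was 8113 to 9949 CPM, with a median of 0.46. At that age 1 marker had risen (cac, beside 2.47% of all genes) and 1 had fallen (Gad1, beside 4.87%). Their part in the values at 30 days was not tested.

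In males Eaat1 missed the threshold at every age. It averaged 913 ± 240.2 CPM at 5 days, 586 ± 29.9 at 20 days, 513 ± 59.2 at 30 days and 464 ± 136 at 40 days. The 40-day-old libraries had 537, 549 and 308 CPM, against 715, 1180 and 844 CPM at 5 days, without overlap. The log2 fold change was -0.97 ± 0.25 (adjusted p = 0.0682 in edgeR, 0.00486 in DESeq2). Without M40C, the lowest of these libraries, it was -0.73.

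The GABA transporter gene CG1732 fell in females at 30 days. It had 238, 210 and 227 CPM in 30-day-old females, against 344, 378 and 770 CPM in 5-day-old females, and fell by 1.19 (log2, SE 0.26, adjusted p = 0.0233), a call kept in 3 of 12 single omissions of a library. Without F5C, the library at 770 CPM, the 30-day value was -0.71 and still called. At 40 days the female libraries, at 252, 302 and 321 CPM, were all above the 30-day-old ones and below the 5-day-old ones. The log2 fold change of 40 against 5 days was -0.75 ± 0.26 (adjusted p = 0.0883 in edgeR, 0.0476 in DESeq2), and -0.30 without F5C. At 20 days DESeq2 also called CG1732 (-0.81, adjusted p = 0.0357), and the edgeR value of -0.82 was -0.36 without F5C. In males the values of CG1732 were -0.73 ± 0.31, -0.92 ± 0.35 and -0.79 ± 0.31 at 20, 30 and 40 days against 5 days (adjusted p = 0.340, 0.701 and 0.183), and -0.43, -0.59 and -0.47 without M5B.

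Gs2, the glutamine synthetase gene, passed the contrast in females and not the F test. It had 1370, 1670 and 1758 CPM in 40-day-old females, against 2331, 2239 and 3879 CPM in 5-day-old females, groups that did not overlap. The log2 fold change was -0.80 ± 0.21 (adjusted p = 0.0372), but with an adjusted p of 0.0754 over the 4 ages Gs2 is not counted as changed. Without F5C, the library at 3879 CPM, the value was -0.51. In 40-day-old males it had 2231, 2178 and 1587 CPM, against 2793, 4465 and 3764 CPM in 5-day-old males. In males the log2 fold change was -0.87 ± 0.22 (adjusted p = 0.0641), and DESeq2 called Gs2 in both sexes (adjusted p = 0.00484 in females and 0.00147 in males).

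The astrocyte marker alrm had the widest spread at 5 days. It had 95.8, 114 and 118 CPM in 40-day-old females, against 148, 152 and 356 CPM in 5-day-old females. The groups did not overlap, and the log2 fold change of -0.98 ± 0.29 did not pass in edgeR (adjusted p = 0.0583) and did in DESeq2 (-0.95, adjusted p = 0.0164). Without F5C, the library at 356 CPM, it was -0.45. In 40-day-old males alrm had 159, 195 and 66.1 CPM, against 170, 410 and 269 CPM in 5-day-old males. These groups overlapped, with a log2 fold change of -1.01 ± 0.41 (adjusted p = 0.206), and -0.63 without M5B and -0.66 without M40C.

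Among the genes of the barrier, Gli rose in females, as given above, nrv2 fell in females and moody did not pass the test. The sodium pump subunit gene nrv2 had 971, 1116 and 1214 CPM in 40-day-old females, against 1716, 1811 and 3001 CPM in 5-day-old females. It fell by 0.97 (log2, SE 0.20, adjusted p = 0.0131). The 30-day-old females, at 1463, 1413 and 1411 CPM, lay between, all above the 40-day-old and below the 20-day-old libraries (2018, 1916 and 1648 CPM), and the log2 fold change of 30 against 5 days was -0.65 ± 0.19 (adjusted p = 0.0637 in edgeR, 0.0192 in DESeq2), and -0.33 without F5C. In females the libraries of nrv2 thus did not overlap between 20, 30 and 40 days. In 40-day-old males nrv2 had 1856, 2018 and 932 CPM, against 1862, 3016 and 2940 CPM in 5-day-old males, with a log2 fold change of -0.70 ± 0.30 (adjusted p = 0.231). Without M40C it was -0.41.

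The receptor gene moody had 159, 200 and 154 CPM in 40-day-old females, against 128, 130 and 192 CPM in 5-day-old females, and the groups overlapped. Its log2 fold change was 0.20 ± 0.16 in females (adjusted p = 0.476) and 0.16 ± 0.19 in males (adjusted p = 0.672). The cortex glia gene wrapper averaged 142 ± 28.9 CPM at 5 days, 139 ± 11.9 at 20 days, 180 ± 23.3 at 30 days and 124 ± 8.12 at 40 days in females. The 40-day-old libraries, at 115, 128 and 131 CPM, were all below the 30-day-old ones at 207, 166 and 167 CPM. That difference, -0.47 ± 0.14 on the log2 scale, did not pass (adjusted p = 0.0605). In males wrapper had 241, 175 and 70.7 CPM at 40 days, against 133, 172 and 226 CPM at 5 days, and M40C alone was below every 5-day-old library.

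**Figure D2:**
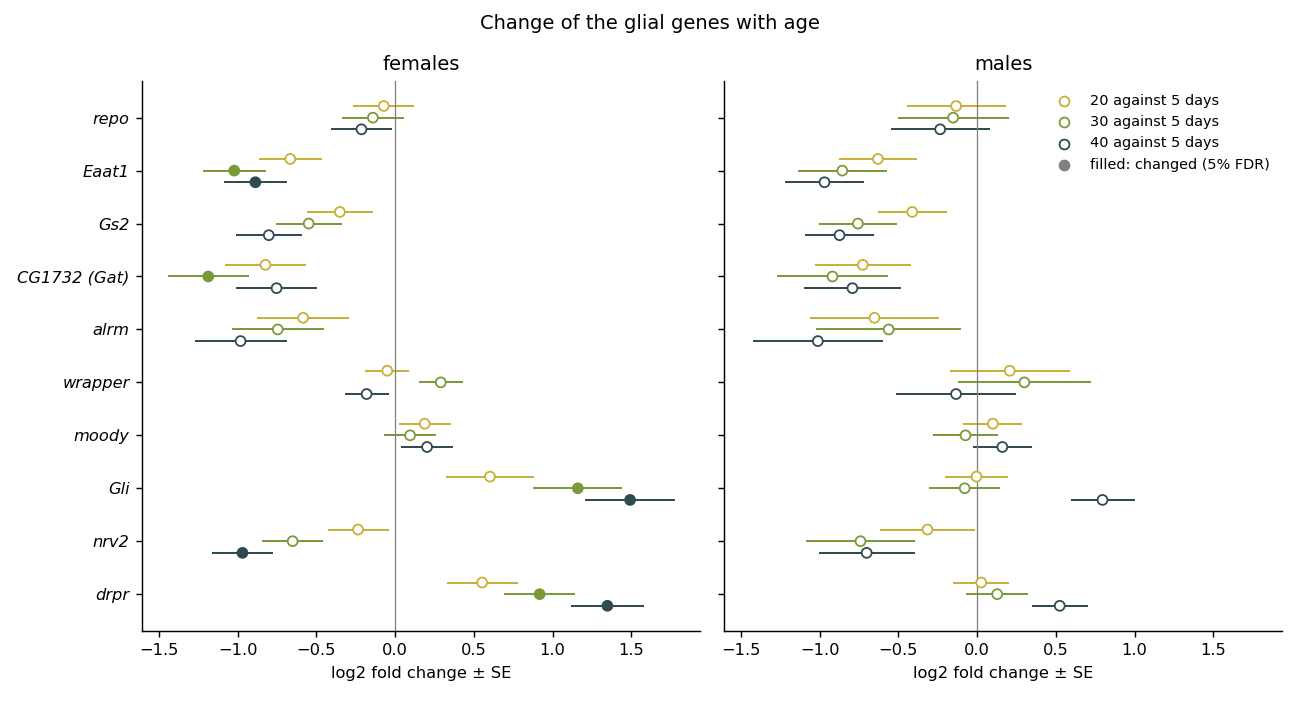
Log2 fold change ± SE of each gene at 20, 30 and 40 days against 5 days, females in the left panel and males in the right, with filled points for genes that changed. In females drpr (1.35) and Gli (1.49) lie farthest right and Eaat1 (-0.89) and nrv2 (-0.97) left of 0 at 40 days; in males no point is filled.

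Across the other steps in age fewer of the 9 genes were called. In 20-day-old against 5-day-old females 0 of 9 changed in edgeR (2.97% of all genes did), 2 had an unadjusted p under 0.05 (Eaat1 and drpr, beside 20.7% of all genes), and DESeq2 called 1 (7.7% of all genes). In 30-day-old against 5-day-old females 3 of 9 changed (6.67% of all genes), 2 of them up (drpr and Gli, where 1.86% of all genes rose) and 1 down (Eaat1, where 4.82% fell), while DESeq2 called 4, with nrv2 in addition (14.6%), and 6 had an unadjusted p under 0.05 (26.4%). Between 40 and 20 days in females 1 of 9 changed (5.28% of all genes), DESeq2 called 3 (11.7%) and 3 had an unadjusted p under 0.05 (26.8%). This gene was nrv2, which fell by 0.73 (SE 0.19, adjusted p = 0.0493). The call of nrv2 was lost in 10 of 12 single omissions of a library. Between 40 and 30 days in females 0 of 9 changed in edgeR (6.61% of all genes), 1 had an unadjusted p under 0.05 (wrapper, beside 26.1% of all genes) and DESeq2 called 0 (15.6%).

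The calls in females rested on few libraries. Leaving out F40B left 0 of the 9 genes called at 40 days, and leaving out F40A left 1. Without F30B or F40C 2 were called, and without F5B or F30A 3. At 30 days leaving out F30A, F30B or F40B left 0 called, and leaving out F5B, F5C or F20C left 1. Over the 4 ages the F test called 0 without F40B and 2 without F30B, F40A or F40C. The log2 fold changes themselves kept their signs: over the 12 single omissions they ran from 1.09 to 1.47 for drpr, 1.36 to 1.68 for Gli, -1.07 to -0.57 for Eaat1 and -1.12 to -0.68 for nrv2 at 40 days. Without F5B, F30A, F30B and F40A together 0 of the 9 genes were called in any comparison of ages in females. In that fit, with fewer libraries, the 40-day values were -0.94 for Eaat1 and -1.01 for nrv2 and the 30-day value of Eaat1 was -1.03, as large as with all libraries (adjusted p = 0.177, 0.140 and 0.571).

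In males few genes of any kind changed in edgeR. Over the 4 ages 0 of the 9 genes changed (0.287% of all genes), 4 had an unadjusted p under 0.05 (Eaat1, Gs2, drpr and Gli, beside 17.1% of all genes), and DESeq2 called 3 (9.5% of all genes). At 20 against 5 days 0 of 9 changed (0.037% of all genes), while DESeq2 called 0 (1.75%) and 1 had an unadjusted p under 0.05 (13.6%). At 30 against 5 days the counts were 0 of 9 (0.0463% of all genes), 0 in DESeq2 (0.619%) and 2 at an unadjusted p under 0.05 (6.26%). At 40 against 5 days 0 of 9 changed (0.287% of all genes), 6 had an unadjusted p under 0.05 (20.2%), and DESeq2 called 3, Eaat1, Gs2 and Gli (7.32%). At 40 against 20 days 0 of 9 changed (0.037% of all genes), 2 had an unadjusted p under 0.05 (13.5%) and DESeq2 called Gli (2.58%). At 40 against 30 days 0 of 9 changed (0% of all genes), while DESeq2 called 0 (0.835%) and 1 had an unadjusted p under 0.05 (8.46%). The median log2 fold change of the 9 genes at 40 against 5 days was -0.24, against -0.01 over all genes tested.

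The sexes were also compared directly. At 5 days 0 of the 9 genes differed between females and males in edgeR (0.168% of all genes did), DESeq2 called 0 (0.476%) and 0 had an unadjusted p under 0.05 (3.99%), and all 9 values were below 0, from -0.38 to -0.03. At 20 days 0 of 9 differed (0.344% of all genes), DESeq2 called 0 (2.13%), and 1, Gli, had an unadjusted p under 0.05 (12.1%). At 30 days 0 of 9 differed in edgeR (0.997% of all genes), 2 had an unadjusted p under 0.05 (24.7%) and DESeq2 called the same 2, Gli and drpr (16.1%). Without F30C edgeR called 2 at this age. At 40 days 0 of 9 differed (0.362% of all genes), DESeq2 called 0 (1.73%), and 2 (Gli and drpr) had an unadjusted p under 0.05 (10.7%).

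The sex difference was widest for Gli at 30 days. Females had 57.0, 55.7 and 24.5 CPM, against 20.95 and 17.9 CPM in males. All female libraries were above both male ones, F30C by the least. Females over males, the log2 fold change was 1.23 ± 0.30 (adjusted p = 0.0526). For drpr at 30 days females had 258, 296 and 175 CPM, against 144 and 152 CPM in males, with a log2 fold change of 0.72 ± 0.25 (adjusted p = 0.0855). At 40 days drpr again had no overlap, with 251, 420 and 268 CPM in females, against 202, 195 and 174 CPM in males (log2 fold change 0.72 ± 0.22, adjusted p = 0.169).

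Whether age acted differently in the sexes was tested as an interaction, the change in females minus the change in males. At 20, 30 and 40 days against 5 days 0 of the 9 genes passed in edgeR, as did 0% of all genes, and DESeq2 called 0 (0.156, 0.076 and 0.162% of all genes). Unadjusted p was under 0.05 for 0 of the 9 at 20 days (4.02% of all genes), 2 at 30 days (8.75%) and 1 at 40 days (6.28%). The largest value was that of Gli at 30 days, 1.27 ± 0.39 on the log2 scale (adjusted p = 0.558), followed by drpr with 0.82 ± 0.33 at 30 days (adjusted p = 0.558) and 0.82 ± 0.31 at 40 days (adjusted p = 0.663). For Eaat1, Gs2, alrm and nrv2 at 40 days the interaction lay between -0.28 and 0.07, with SE of 0.30 to 0.53. A change in females that was absent from males was therefore not shown for any of the 9 genes.

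Because the libraries differed in their total glial signal, each gene was also set against repo in the same library, a measure chosen after the values had been seen. Within the 5-day-old groups of either sex 6 of the other 8 genes spread less on this scale than in CPM, and 2, drpr and Gli, spread more. The gene nrv2 differed by 1.75 times between the highest and the lowest 5-day-old female library in CPM and by 1.04 times relative to repo. For Gli in the same females these figures were 1.22 and 2.12, and for drpr 1.38 and 1.44. At the other ages 2 to 5 of the 8 genes spread less relative to repo. Among the 8 genes compared in this way, 4 were lower and 3 higher in all 40-day-old than in all 5-day-old females, beside 22.2% of all genes with no overlap on this scale. In CPM the counts were 4 lower and 2 higher of 9, beside 32.1% of all genes. In males 3 were lower and 2 higher relative to repo (10.2% of all genes), and 2 were lower and 2 higher in CPM (24.8% of all genes).

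Per repo transcript, Eaat1 had 2.64, 2.34 and 2.23 in 40-day-old females, against 3.51, 4.01 and 3.86 in 5-day-old females. Among males at 40 days the ratio was 2.001, 1.99 and 2.77, against 3.81, 3.68 and 3.20 in 5-day-old males. The sexes gave nearly the same values, with no overlap between the ages in either. For nrv2 the ratio was 6.26, 5.50 and 6.001 in 40-day-old females, against 9.79, 10.2 and 9.90 in 5-day-old females, while males had 6.91, 7.31 and 8.40 at 40 days, against 9.93, 9.41 and 11.1 at 5 days. The male groups of nrv2, which overlapped in CPM, did not overlap relative to repo. The ratio of drpr was 1.62, 2.07 and 1.32 in 40-day-old females, against 0.690, 0.594 and 0.480 in 5-day-old females, while males had 0.751, 0.708 and 1.57 at 40 days, against 0.626, 0.472 and 0.494 at 5 days. M40C, in which repo was low, was the highest male library for the ratios of drpr, Gli and moody, and for Gs2 its ratio of 14.3 lay within the 5-day-old range of 13.9 to 14.9, where M40A and M40B had 8.31 and 7.89.

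**Figure D3:**
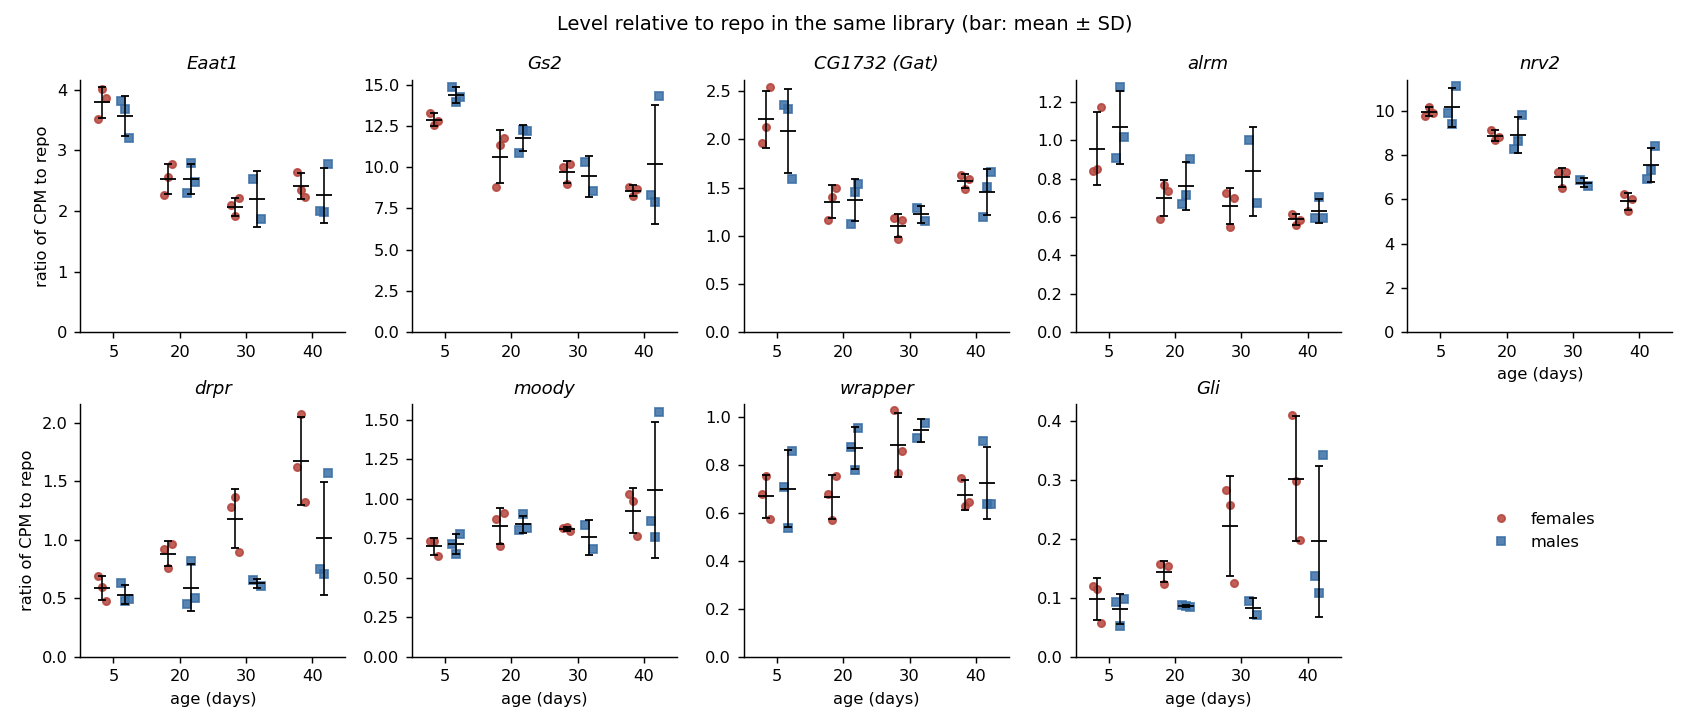
Ratio of CPM to that of repo in the same library, by age in days, with females as circles and males as squares; black bars are the mean ± SD of a group. Eaat1 and nrv2 sit lower at 40 days than at 5 days in both sexes (nrv2 at 5.50 to 6.26 against 9.79 to 10.2 in females), drpr and Gli sit higher, and M40C stands apart for Gs2, moody, drpr and Gli.

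Over the 23 libraries the genes fell into sets that varied together. Correlations are of log2 CPM and are given as a description, since libraries share depth, scaling and group. Eaat1 and CG1732 had r = 0.94, Gs2 and nrv2 0.93, Gs2 and alrm 0.91 and Eaat1 and Gs2 0.91. The genes drpr and Gli were correlated with each other (0.85) and inversely with Gs2 (-0.60 and -0.72) and Eaat1 (-0.52 and -0.66). After the group means were removed, r between drpr and Gli was 0.34. The link of repo to nrv2, in contrast, was 0.80 over all libraries and 0.97 within groups, and drpr was then positively related to Eaat1 (0.38).

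**Figure D4:**
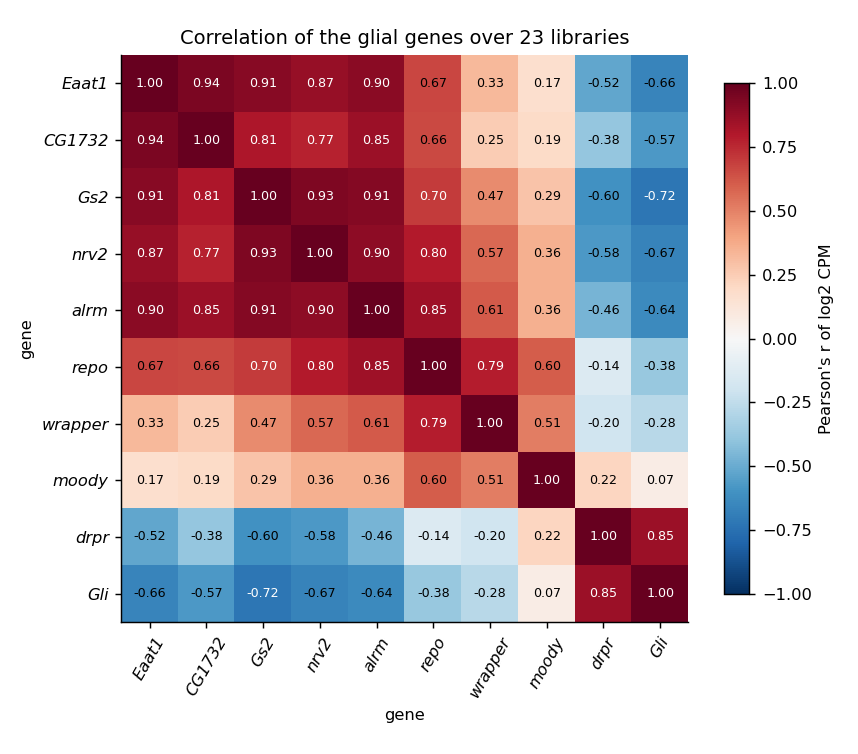
Pearson's r of log2 CPM between the 9 glial genes and CG1732 over 23 libraries, red for positive and blue for negative values. Eaat1, CG1732, Gs2, nrv2 and alrm form a block with r of 0.77 to 0.94, and drpr and Gli form a pair (0.85) that is negative against that block.

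Among 11332 genes tested, those most like each member over the 23 libraries were looked up by the same correlation. For repo these were CG31663 (r = 0.91), CG42235 (kumpel, 0.90) and CG7888 (0.88). For Eaat1 they were the tetraspanin gene Tsp5D (0.95), wun2 (0.95) and CG1732 (0.94), for CG1732 Eaat1 (0.94), Tsp5D (0.92) and CG1358 (0.92), and for Gs2 the amphiphysin gene Amph (0.96), CG4409 (0.93) and nrv2 (0.93). For alrm they were CG9394 (0.93), CG1358 (annotated HisT, 0.93) and CG6723 (annotated bumpel, 0.93), and for nrv2 CG4409 (0.97), CG7433 (annotated Gabat, 0.95) and Gs2 (0.93). The leading genes for moody reached only 0.85 (CG13631), 0.80 (CG12355) and 0.79 (CG6040), and for wrapper 0.90 (CG5895), 0.89 (Hydr1) and 0.88 (Aph-4). For drpr they were c11.1 (0.95), Vps13 (0.93) and dos (0.93), and for Gli the integrin gene scb (0.94), CG6701 (0.93) and Myo31DF (0.91). The lists of most alike genes for drpr, Gli, repo, moody and wrapper shared no gene with each other or with those of the other genes. Lists of 3 among 11332 genes can differ wholly even for correlated members, as for drpr and Gli (r = 0.85).

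Further genes of glial function were read from 5 lists. Of 15 other genes of the engulfment pathway, 2 rose (2.47% of all genes) and 1 fell (4.87% of all genes) in 40-day-old against 5-day-old females, with a median log2 fold change of 0.06, against -0.03 over all genes. The matrix metalloproteinase gene Mmp1 had 145, 119 and 98.3 CPM in 40-day-old females, against 40.5, 40.9 and 35.5 CPM in 5-day-old ones, and rose by 1.64 ± 0.32 on the log2 scale (adjusted p = 0.0117). It also rose in males, with 122, 134 and 113 CPM in 40-day-old flies, against 38.6, 36.7 and 33.9 CPM in 5-day-old flies (log2 fold change 1.77 ± 0.13, adjusted p = 4.03e-04). No library of the older flies overlapped the younger ones in either sex. At 40 against 5 days Mmp1 was the only gene of the 5 lists to pass the test in males, where 0.287% of all genes passed.

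Rac2, a small GTPase, rose in 40-day-old females by 0.64 ± 0.15 (adjusted p = 0.027). The JNK gene bsk fell in females at 20, 30 and 40 days against 5 days, with log2 fold changes of -0.58, -0.68 and -0.55 (adjusted p = 0.0359, 0.0122 and 0.0177). The adaptor gene ced-6, whose product binds Draper, was highest at 20 days. It had 614, 544 and 602 CPM in 20-day-old females, against 363, 360 and 363 CPM in 5-day-old females, and rose by 0.68 ± 0.12 (adjusted p = 0.024). At 30 days it had risen by 0.45 ± 0.12 (adjusted p = 0.0416), and at 40 days its log2 fold change was 0.20 ± 0.12 (adjusted p = 0.312). In 40-day-old against 20-day-old females ced-6 fell by 0.48 (SE 0.12, adjusted p = 0.0399). The transcription factor genes kay and Jra, components of AP-1, had log2 fold changes of 0.69 ± 0.16 and 0.71 ± 0.20 in 40-day-old females and did not pass both tests.

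Of 20 other genes of the blood-brain barrier and septate junctions, 0 changed in 40-day-old against 5-day-old females in edgeR (7.34% of all genes did). Of the 20, 7 had an unadjusted p under 0.05 (26.2% of all genes did), and their median change was 0.32 on the log2 scale, against -0.03 over all genes. The contactin gene Cont (0.64 ± 0.16), Mcr (0.68 ± 0.16) and the claudin gene sinu (0.40 ± 0.10) passed the contrast (adjusted p = 0.0332, 0.0285 and 0.0336) and not the F test over ages. The claudin gene kune had 0.52 ± 0.23 in females and 0.53 ± 0.13 in males (adjusted p = 0.184 and 0.0626). Atpalpha, the alpha subunit of the sodium pump that pairs with the product of nrv2, averaged 2762 CPM in 30-day-old females, against 5459 CPM in 5-day-old females, and fell by 1.02 (SE 0.23, adjusted p = 0.0273), at the age where the sum of neuron markers was also low. At 40 days its log2 fold change was -0.60 ± 0.23 (adjusted p = 0.128). Galphai, a G protein subunit gene, rose in females at 20 days by 0.45 ± 0.10 (adjusted p = 0.0382). It was lower at 40 than at 20 days in females by 0.52 on the log2 scale.

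Of 5 other cortex glia genes, 1 fell in 40-day-old females (4.87% of all genes did). The innexin gene Inx2, whose product forms gap junctions, had 316, 280 and 262 CPM, against 462, 401 and 596 CPM in 5-day-old females, and fell by 0.75 (SE 0.14, adjusted p = 0.0106). At 30 days it had fallen by 0.66 (adjusted p = 0.0233), and in 40-day-old males its value was -0.88 ± 0.25 (adjusted p = 0.0875). A second innexin gene, ogre, had -0.46 ± 0.14 in females and -0.50 ± 0.23 in males (adjusted p = 0.0723 and 0.269). The exchanger gene zyd had -0.37 ± 0.17 and -0.23 ± 0.30, and spz3 was near the filter, at a mean of 2.02 CPM in 40-day-old and 3.55 CPM in 5-day-old females.

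None of 6 other transmitter handling genes changed in either sex at 40 days in edgeR (7.34% of all genes in females and 0.287% in males). In each sex 1 had an unadjusted p under 0.05 (26.2% of all genes in females and 20.2% in males). These were b in females, which spread from 42.8 to 136 CPM at 40 days, against 11.6 to 36.1 CPM at 5 days (log2 fold change 1.95 ± 0.67, adjusted p = 0.100), and Dat in males. The row Dat is the acetyltransferase gene, and its value in 40-day-old males was -0.91 ± 0.17 (adjusted p = 0.0254), which passed the contrast and not the F test. Eaat2, a second transporter gene of the family of Eaat1, had -0.20 ± 0.24 in females and -0.22 ± 0.14 in males (adjusted p = 0.653 and 0.430), and e had -0.08 ± 0.28 and -0.71 ± 0.32. Of 4 other genes of glial fate none changed at 40 days in either sex (7.34% of all genes in females and 0.287% in males). The value of pnt was 0.57 ± 0.18 in females and 0.50 ± 0.17 in males (adjusted p = 0.0715 and 0.145). That of ttk was 0.24 ± 0.12 and 0.63 ± 0.16, and gcm2 was at 0.120 to 1.32 CPM in the libraries of these ages.

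**Figure D5:**
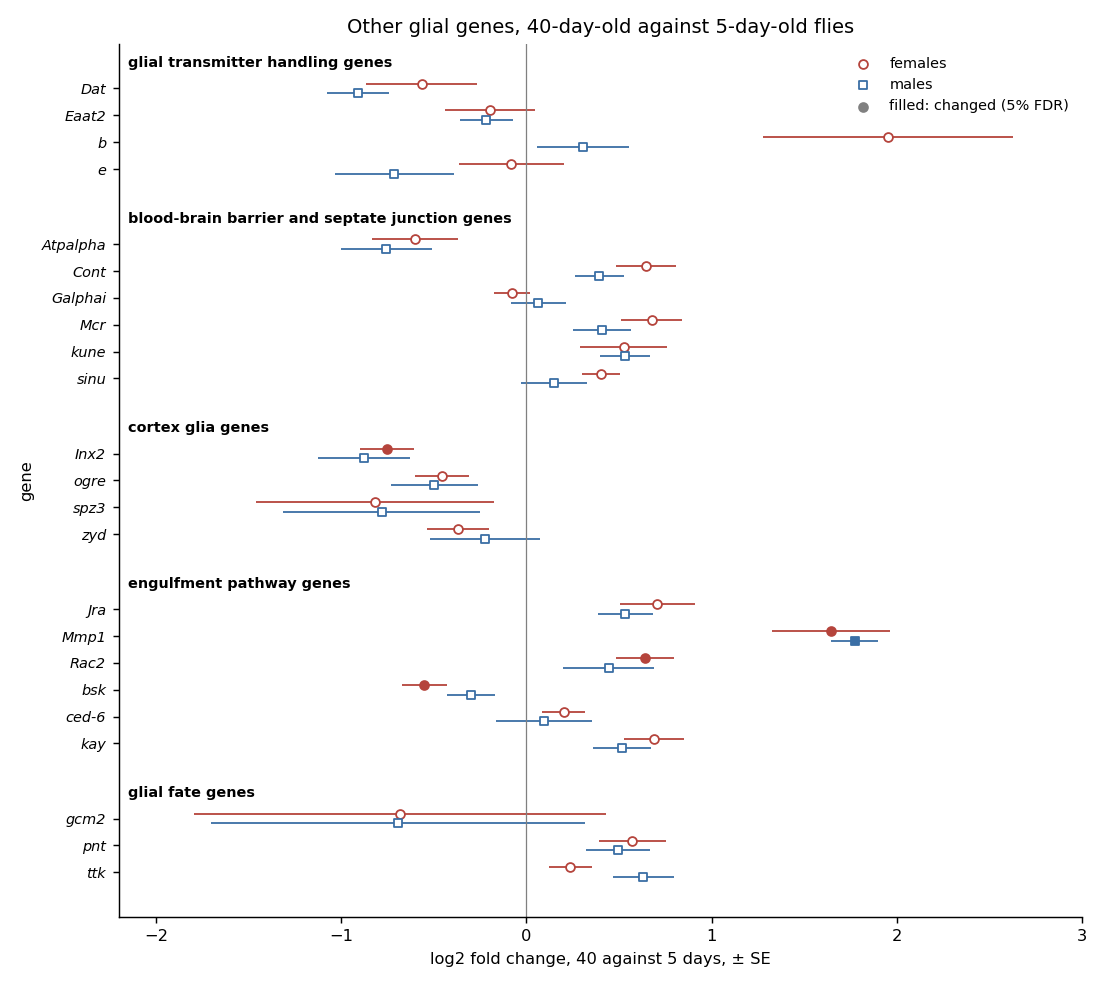
Log2 fold change ± SE of other glial genes in 40-day-old against 5-day-old flies, females as circles and males as squares, filled where the gene changed. Mmp1 stands at 1.64 in females and 1.77 in males, and Inx2 (-0.75), Rac2 (0.64) and bsk (-0.55) are the other filled points, all in females.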

How the data were processed

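RNA from pools of 18 Canton-S brains was sequenced in 23 libraries. Reads in pairs were trimmed by the authors (Trimmomatic 0.35) and mapped to the dm6 build by STAR, and HTSeq-count, set to union, counted them. The deposited values are raw counts per gene, with no normalization. Symbols were matched to release 115 of the Ensembl annotation for exon lengths, and CG1732 was matched to Gat through RefSeq.

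For the tests, edgeR 4.0.16 (R 4.3.3; filterByExpr, TMM, robust quasi-likelihood fit, two-sided) was fitted to each sex separately by age, and to both sexes in 1 fit of 8 groups for differences between the sexes. P-values were adjusted over all genes tested (10505 in females, 10799 in males and 11332 in the joint fit). The tests were tried on simulated counts.

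The genes named were all listed members, the 3 genes with the smallest p in 40 against 5 days in each sex from each of 5 other glial lists with any that changed, and the 3 genes most correlated with each member. Members, lists and this rule were chosen with earlier results of these data known. Alternatives were DESeq2 1.42.0, other scalings and filters, the replicate letter as a block, other sets of samples, the contrast test alone, removal of a trend with exon length, and libraries left out. No genome or sequence was used here.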

Additional observations from a re-analysis of the deposited data

How the results depend on the processing

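Over 19 comparisons the count of the 9 glial genes called was recomputed under every alternative. Over the 4 ages in females it was 4, and 6 in DESeq2, 3 with both sexes in 1 fit and 0 without the libraries with mex1 above 10 CPM, with 0 to 5 when single libraries were left out. For 30 against 5 days in females it was 3, and 4 in DESeq2, 2 with library totals, 0 with only the 2 ages in the fit and 0 without the mex1 libraries (0 to 3 with single libraries left out). For 40 against 5 days in females it was 4, and 6 in DESeq2, 5 with the contrast test alone, 3 with both sexes in 1 fit, 2 with only those ages in the fit and 0 without the mex1 libraries (0 to 4 with single libraries left out). For 40 against 20 days in females it was 1, and 3 in DESeq2 and with only those ages, and 0 with DESeq2 size factors, with library totals, with no filter on low counts and without the mex1 libraries (0 to 2 with single libraries left out). For 40 against 30 days in females it was 0, and 0 to 1 with single libraries left out. From 0 the count went to 1 in DESeq2 at 20 against 5 days in females, to 3 over the 4 ages and to 3 at 40 against 5 days in males, and to 1 at 40 against 20 days in males. Between the sexes at 30 days it was 0, and 2 in DESeq2 and with the length trend removed, and 1 with library totals and with the filter of 1 CPM (0 to 2 with single libraries left out). In the other comparisons, the 3 interactions included, every alternative gave 0. The fit without the mex1 libraries and those with only 2 ages hold fewer libraries; other causes were not tested. No called value changed sign, and in the 6 contrasts with 5 days 34 of 1350 alternative values of the 9 glial genes and CG1732 had the other sign, most of them for repo, moody and Gli.

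Replicate letters did not pair the libraries: deviations of same-lettered libraries had a mean r of 0.0661 in females (18 pairs) and -0.0723 in males (15 pairs). With the replicate block the count at 40 against 5 days in females was 4. Each of these genes had at least 241 counts in every library, and each group had 3 libraries or fewer. Total counts were lower in every 40-day-old library than in every 5-day-old one, and the part of depth in the values was not tested.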
